A study of Mus musculus with 13 samples.

Results

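Aortic endothelial cell (EC) RNA of mice without heme oxygenase 2 was compared with that of wild-type littermates in 3 Hmox2-/- and 3 Hmox2+/+ libraries. These 6 libraries were chosen by their tissue label, aorta, from 13 libraries, the other 7 of which were whole hearts. The Hmox2-/- mice lack the gene in the whole body, and both genotypes were kept in room air with no treatment given in the labels. The study calls the sequenced mice young, and their sex is not stated in the sources used here. The libraries are called KO 1 to KO 3 and WT 1 to WT 3, and nothing says that equal numbers mark a shared litter or day. The RNA was obtained by slowly flushing a lysis reagent through the lumen of the aorta, so it came from a washed-out lysate and not from sorted cells. The study used the Hmox2-/- mouse as a model of sleep apnea and asked whether its ECs are activated.

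Heme oxygenases open the heme ring and release carbon monoxide, iron and biliverdin, which biliverdin reductase turns into bilirubin. HMOX1 is induced by heme and by oxidative stress, whereas HMOX2 is made constitutively and serves in oxygen sensing in the carotid body. In arteries carbon monoxide relaxes smooth muscle, and the endothelium sets vessel tone, clotting and the entry of leukocytes.

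The 6 libraries held between 26067147 and 31138642 estimated counts, and 15301 genes were expressed at a level that could be tested. Defining endothelial genes were found at uneven levels. Pecam1 had a mean of 560 TPM (a share of all transcripts, corrected for length) in the WT libraries and 970 TPM in the KO libraries. Cdh5 had 72.3 and 83.1 TPM, Tek 58.9 and 94.4, and the VEGF receptor Kdr 3.4 and 2.2. Genes of other cells of the vessel wall and its surroundings were plentiful. The smooth muscle actin Acta2 had a mean of 1394 TPM in WT and 602 TPM in KO, the brown fat uncoupling protein Ucp1 had 1318 and 1552 TPM, and the fibroblast proteoglycan Dcn had 775 and 1893 TPM. A difference in any of these libraries can therefore be fewer cells of a type or less RNA per cell, which bulk RNA cannot tell apart. The summed Y-linked genes split the KO libraries. They stood at 165, 148 and 152 CPM (counts scaled to an adjusted library total) in WT 1 to WT 3, at 198 CPM in KO 1, and at 6.51 and 7.14 CPM in KO 2 and KO 3. The WT libraries and KO 1 thus carried Y-linked RNA at a like level and the other KO libraries almost none. A fit with the Y-linked level as a term rests its genotype effect on KO 1 against the 3 WT libraries, and its values are called those "with the Y-linked term". A fit without KO 2 and KO 3 sets KO 1 alone against the 3 WT libraries, so that all of its spread comes from WT. Its values describe that 1 library, and they are no replicate check. Mitochondrially encoded genes took between 19.4% and 30.7% of the counts in WT and between 24.1% and 30.9% in KO.

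Hmox2 itself (chromosome 16, 4544216 to 4589816, plus strand, GRCm39) was reduced and not absent. It stood at 76.2, 66.1 and 63.9 CPM in the WT libraries and at 12.6, 13.3 and 14.75 CPM in the KO libraries, which is 19.7% of the WT mean. Corrected for transcript length the fall was smaller, from a mean of 57.7 to 24.99 TPM, and counts from length-scaled TPM gave a log2 fold change of -1.15. The log2 fold change, KO over WT, was -2.34 ± 0.13 (SE, n = 3 and 3; edgeR's quasi-likelihood test, Benjamini-Hochberg adjusted p = 0.000131), and it passed in each of the 6 fits that left out 1 library. All KO libraries lay below all WT libraries, and an exact permutation test over the 6 libraries gave p = 0.1, the smallest that 3 against 3 allows. Hmox2 overlaps Cdip1, a gene on the other strand, and shares 70.2% of its 31-base words with it.

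The transcripts of Hmox2 moved in different directions. Hmox2-201, which codes for the whole protein, had 28.2, 29.5 and 27.6 TPM in WT and 3.33, 3.54 and 2.47 TPM in KO, -3.17 ± 0.24 on the log2 scale (SE, edgeR adjusted p = 0.00530). Hmox2-203 had 17.6, 21.85 and 23.02 TPM in WT and no count in any KO library, where 602, 637 and 701 estimated counts stood in WT (edgeR adjusted p = 0.00237). Both were called in all 6 fits without 1 library. The short coding model Hmox2-205, which spans 4574709 to 4582548, ran the other way at 0.971, 3.02 and 6.06 TPM in WT and 19.5, 13.7 and 28.4 TPM in KO. Its log2 fold change of 2.71 ± 0.59 did not pass (SE, edgeR adjusted p = 0.0512), although every KO library lay above every WT library. Hmox2-205 made up 1.75% of the gene's mean CPM in WT and 57.95% in KO. The remaining models were low in both genotypes, among them Hmox2-204 with 97, 68 and 52 estimated counts in WT and 14, 28 and 19 in KO (edgeR adjusted p = 0.109).

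The exon in which Hmox2-205 ends shows where the transcripts part. It is printed as 140 bases from the start of that exon in Hmox2-201, chr16:4582470-4582609 on the plus strand of GRCm39, with the 61 bases past the end of Hmox2-205 in capitals:
Hmox2-201: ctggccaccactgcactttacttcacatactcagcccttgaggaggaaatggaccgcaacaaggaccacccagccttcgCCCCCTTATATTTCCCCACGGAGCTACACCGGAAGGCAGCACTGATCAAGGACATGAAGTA
The capitals lie in Hmox2-201, which fell, and not in Hmox2-205, which did not.

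Cdip1, which encodes a protein that promotes p53-dependent cell death, lies on the minus strand from 4568212 to 4608164. It fell from 190.0, 126 and 125.7 CPM in WT to 15.97, 18.08 and 23.39 CPM in KO, -2.94 ± 0.23 on the log2 scale (SE, edgeR adjusted p = 0.000956, called in all 6 fits without 1 library). Its main transcript Cdip1-203 had 3051, 2110 and 2302 estimated counts in WT and 92, 70 and 170 in KO. The short model Cdip1-205 had 23, 8 and 16 counts in WT and 31, 35 and 36 in KO. The counting did not use strand, so reads of Hmox2 and Cdip1 in the overlap cannot be told apart.

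**Figure D1:**
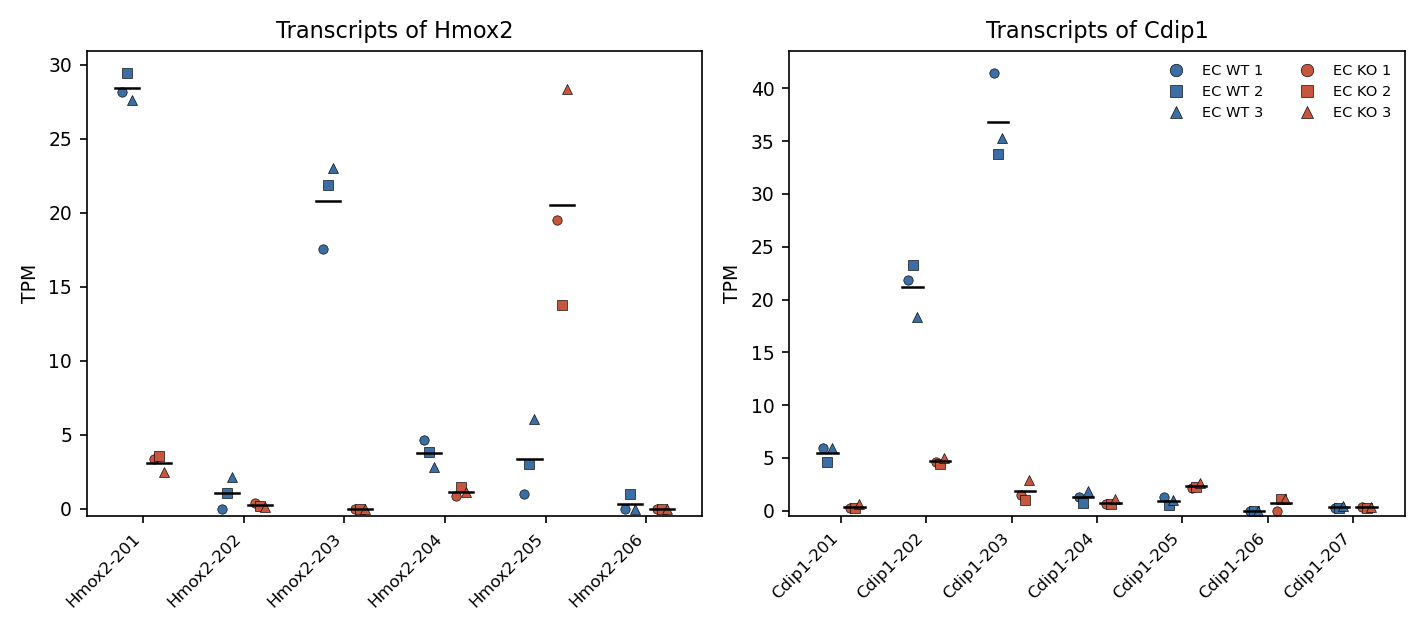
TPM of the listed transcripts of Hmox2 and Cdip1 in each EC library, with points for WT and KO libraries and a bar at each group's mean. Hmox2-203 is at 0 in every KO library, Hmox2-205 lies higher in KO than in WT, and Cdip1-203 falls from 33.8 TPM or more to 2.89 TPM or less.

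Over all genes, 825 were higher in KO (5.39% of 15301) and 595 lower (3.89%) at an adjusted p of at most 0.05 and a log2 fold change of at least 1 in size. These are called differentially expressed genes (DEGs) below. Without the fold criterion 1532 genes were higher (10%) and 1234 lower (8.06%), and "rose" and "fell" refer to this call. An unadjusted p under 0.05 was far more common, in 5402 of the 15301 genes counting both directions. DESeq2 gave 2090 genes higher and 1943 lower at an adjusted p of at most 0.05. Counts of gene list members below are to be read against the number over all genes at the same cut-off. In a fit of all 13 libraries the split was 1925 higher and 2395 lower. In 6231 genes (40.7%) every KO library lay on the same side of every WT library, so a lack of overlap alone is a weak description. The median log2 fold change of all genes tested was -0.02. Of the 1420 DEGs, 473 were called in each of the 6 fits that left out 1 library, 277 of them higher and 196 lower. KO 3 mattered most: 518 of the 1420 DEGs were called again without it. With the Y-linked term 188 of the 1420 DEGs were called again, and 49 when KO 1 alone was set against the WT libraries. Of genes with at least 20% of their 31-base words in another gene 14.5% were DEGs, against 8.34% of the rest. That class holds near-identical copies and also genes that overlap a neighbour, such as Hmox2 and Cdip1. Of 405 pseudogenes tested 179 were DEGs.

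Close to Hmox2, the mitochondrial chaperone Trap1 showed the firmest change. Trap1 (chromosome 16, 3856215 to 3895716, minus strand) had 16.7, 17.75 and 16.7 CPM in WT and 138, 151 and 143.5 CPM in KO. Its log2 fold change was 3.08 ± 0.11 (SE, edgeR adjusted p = 1.39e-05), it was called in all 6 fits without 1 library, and KO 1 alone against the WT libraries gave 3.03. Every KO library thus held several times the Trap1 RNA of any WT library, KO 1 included. Of the 82 genes tested within 10 Mb of Hmox2, 3 were DEGs upward and 6 downward (10.98%), against 7.03% of the 384 on the rest of chromosome 16. The 6 include Hmox2 itself and Cdip1, whose reads overlap it. Over all genes 5.39% were DEGs upward and 3.89% downward.

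The other DEGs near Hmox2 were less firm. Adcy9, an adenylyl cyclase, fell from 24.9, 13.3 and 13.4 CPM to 6.48, 6.28 and 5.44 CPM, and lost its call without KO 3 (edgeR adjusted p = 0.0636). Srl, which encodes the calcium-binding sarcalumenin of muscle, fell from 16.2, 21.1 and 14.1 CPM to 5.95, 9.85 and 8.94 CPM (edgeR adjusted p = 0.0239) and failed without KO 3 (0.0816). Myh11, the smooth muscle myosin, is described with its cell type. Dnase1 reaches over the end of Trap1 and rose from 0.701, 1.00 and 1.05 CPM to 2.20, 1.95 and 1.88 CPM (edgeR adjusted p = 0.0496). Its call was lost in every fit that left out 1 library, with an adjusted p of 0.135 without KO 2. The olfactory receptor gene Or1f19 rose from 0.886, 0.200 and 0.340 CPM to 3.29, 2.84 and 4.52 CPM and failed without KO 3 (edgeR adjusted p = 0.0640). The pseudogene Pphln1-ps1, all of whose words occur elsewhere, went from 0.554, 0.969 and 1.02 CPM to no count.

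**Figure D2:**
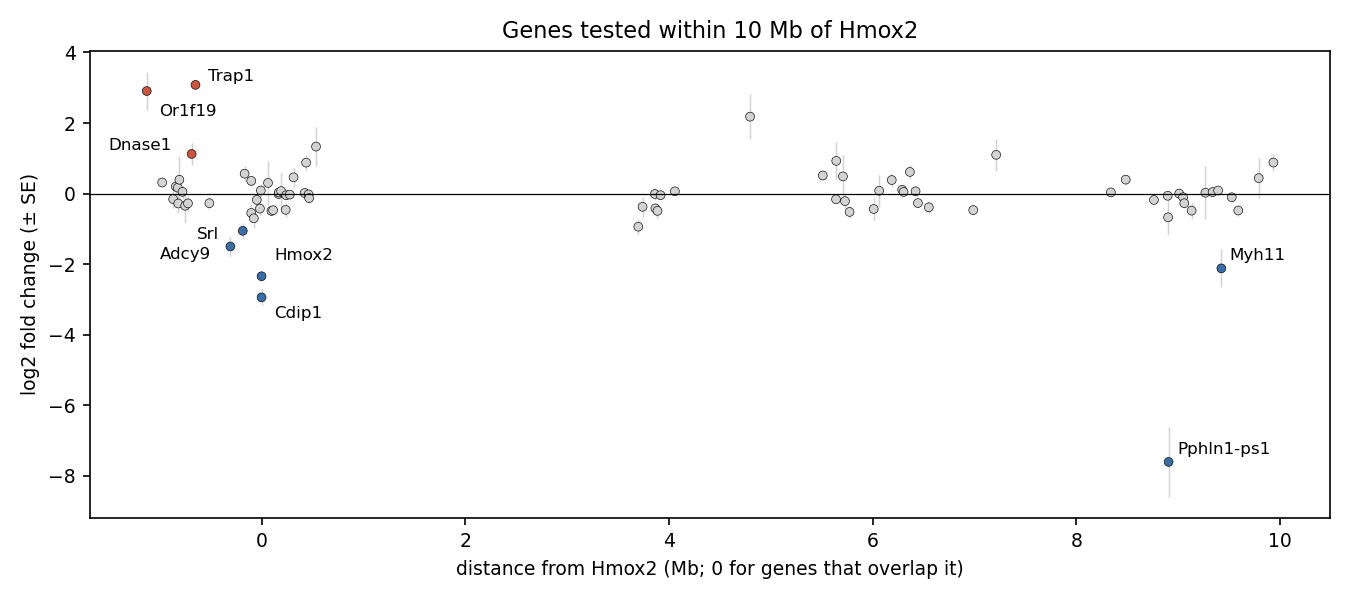
Log2 fold change, KO over WT, with its SE, of the 82 genes tested within 10 Mb of Hmox2, against the distance from Hmox2 in Mb. Coloured points are the 9 DEGs. Trap1 stands alone above 3, and Hmox2 and Cdip1 lie lowest among the labelled genes with counts in both genotypes.

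Among DEGs without a near-identical copy that held in all 6 fits without 1 library, those with the largest rises were of mixed kind. The olfactory receptor genes Or5m8 (0, 0.100 and 0.155 CPM in WT, 5.77, 4.94 and 10.1 in KO) and Or4c3 (0.0369, 0.100 and 0.309 CPM in WT, 9.67, 8.12 and 13.6 in KO) were near 0 in WT. Or2t1 was found at 0.148, 0.200 and 0.525 CPM in WT and 5.74, 10.1 and 20.7 CPM in KO. The homeobox gene Hoxb1 had 0.0738, 0 and 0.185 CPM in WT and 5.42, 4.18 and 7.72 in KO. These genes went from a few reads per library to levels that every KO library shared.

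Gdpd3, which encodes a lysophospholipase D, rose from 0.369, 0.635 and 1.51 CPM to 35.3, 34.5 and 28.95 CPM. Its log2 fold change was 5.26 ± 0.41 (SE, edgeR adjusted p = 0.00102), and KO 1 alone against the WT libraries gave 5.37. The mast cell tryptase Tpsb2 rose from 0.148, 0.200 and 0.958 CPM to 15.0, 22.5 and 8.64 CPM (log2 fold change 5.09 ± 0.67, SE; edgeR adjusted p = 0.00500). Mmd2 rose from 0.665, 3.38 and 0.680 CPM to 16.2, 25.1 and 73.2 CPM, most in KO 3, and did not pass with the Y-linked term (edgeR adjusted p = 0.108). The zinc finger genes Zfp457 (log2 fold change 4.88) and Zfp982 (4.02) and the gene model Gm48391 (5.14) completed the 10. All but Mmd2 passed with the Y-linked term as well.

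The 10 largest falls were mostly muscle genes. Gbp2b, an interferon-inducible guanylate-binding protein, was the exception with the lowest p, at 29.35, 50.5 and 47.25 CPM in WT and 0.0708, 0.192 and 0.147 CPM in KO (edgeR adjusted p = 4.63e-05). The ventricular light chain Myl2 had 12.85, 116 and 30.0 CPM in WT and 0.0354, 0.268 and 0.0368 in KO. Myl3 had 9.23, 50.5 and 16.2 against 0.0708, 0.192 and 0 CPM, and cardiac troponin T, Tnnt2, fell from 18.75, 73.2 and 29.0 to 0.638, 0.498 and 0.294 CPM. WT 2 was the highest library for these cardiac genes. The skeletal muscle genes had another order, with WT 2 lowest: Acta1 had 19.3, 7.82 and 33.1 CPM in WT and 0.354, 0.0766 and 0.368 in KO, and Tnnt3 had 19.6, 4.14 and 22.4 against 0.248, 0.345 and 0.184. Csrp3, Eef1a2 and the calcium buffer Pvalb had at most 2 counts in any KO library. The uroplakin Upk1b, a mesothelial and urothelial gene, fell from 4.65, 11.03 and 11.2 CPM to 0.0354, 0.230 and 0.147 CPM. With the Y-linked term Gbp2b and Upk1b passed (edgeR adjusted p = 0.00394 and 0.0331), while the 8 muscle genes did not (0.0617 to 0.114). Their log2 fold changes in that fit remained large, at -5.97 for Tnnt2, -5.81 for Acta1 and -5.93 for Tnnt3.

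**Figure D3:**
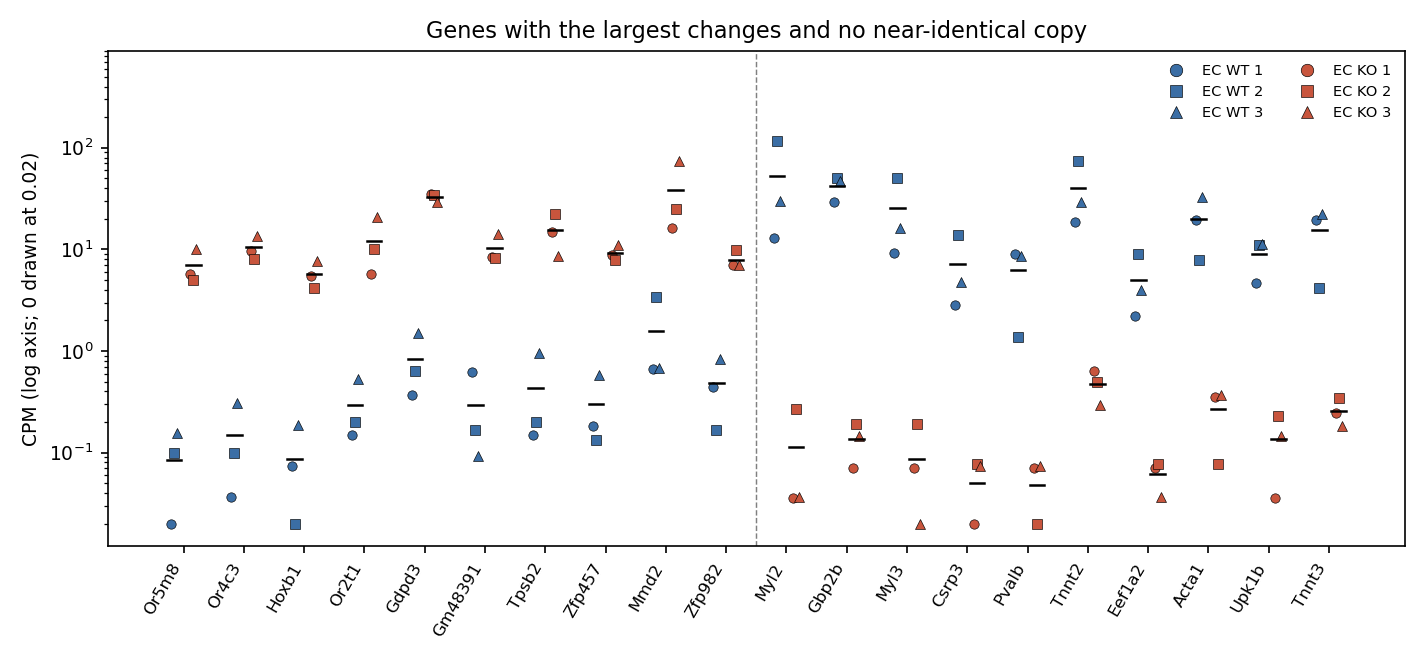
CPM on a log axis of the 10 DEGs with the largest rise and the 10 with the largest fall in each EC library, among genes with under 20% of words shared, called in all 6 fits without 1 library. A value of 0 is drawn at 0.02. No KO point reaches 1 CPM for the genes that fell, and WT points spread up to 116 CPM for Myl2.

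Where a gene has a near-identical copy, the split of its reads between the copies rests on few bases. Rps3a1, a ribosomal protein gene on chromosome 3, and its copy Rps3a2 on chromosome 14 differ at 4 of 792 aligned bases. They are shown over a stretch that holds 2 of these differences, in capitals, on the minus strand of GRCm39, chr3:86045790-86045879 for Rps3a1 and chr14:88360572-88360661 for Rps3a2:
Rps3a1-201: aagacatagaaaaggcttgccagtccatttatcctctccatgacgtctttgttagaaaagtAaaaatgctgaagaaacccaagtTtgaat
Rps3a2-201: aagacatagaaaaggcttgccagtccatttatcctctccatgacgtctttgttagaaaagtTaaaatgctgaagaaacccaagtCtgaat
The mean of Rps3a1 went from 95.3 CPM in WT to 699 CPM in KO, and that of Rps3a2 from 390 to 0.147 CPM. Their sum moved from 485.5 to 699.4 CPM, by far less than either alone. In all, 10 such pairs of DEGs ran in opposite directions. For the tropomyosin Tpm3 and Tpm3-rs7 the sum moved from 138.4 to 184.6 CPM, and for the importin Kpna2 and Kpna2rt from 23.95 to 21.65 CPM. For the chromatin protein Hmgb1 and Gm21596 the sum moved from 113.5 to 274.9 CPM, so here the copy held little of the change.

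The mitochondrial complex I gene mt-Nd3 and the pseudogene Gm28438 on chromosome 1 differ at 1 of 345 aligned bases. This pair was singled out after its values were seen. The base that differs is in capitals, chrM:9459-9518 on the plus strand and chr1:24652141-24652200 on the minus strand:
mt-Nd3-201: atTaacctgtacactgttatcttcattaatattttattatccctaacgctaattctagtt
Gm28438-201: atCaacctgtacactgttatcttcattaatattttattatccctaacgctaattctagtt
Gm28438 had 0, 8.52 and 0.0309 CPM in WT and 2988, 3504 and 2053 CPM in KO. mt-Nd3 had 3373, 2234 and 2231 CPM in WT and 1464, 1700 and 1580 in KO, with a log2 fold change of -0.72 ± 0.24 that did not pass (SE, edgeR adjusted p = 0.0739). The mean of Gm28438 went from 2.85 CPM in WT to 2849 CPM in KO, a larger change in CPM than the fall of mt-Nd3. A move of reads between the pair was not tested.

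Among genes with at least 20% of words shared, the largest changes were in copies that were at or near 0 in 1 genotype. The major urinary protein genes Mup18 and Mup11, which encode pheromone carriers of the lipocalin family, had no count in WT. Mup18 had 13.5, 30.15 and 65.0 CPM in KO, at least 358-fold higher when the WT mean is set at 3 counts a library, and Mup11 had 22.85, 17.3 and 41.2 CPM, at least 268-fold higher. Mup22 rose from 1.85, 1.94 and 0.989 CPM to 73.0, 115 and 292 CPM. Of 22 major urinary protein genes listed, 7 were tested and 6 rose, with 4 to 6 in the fits without 1 library and 3 with the Y-linked term. All 7 share words with one another, so the counts of single members are uncertain. Ribosomal pseudogenes went the other way: Rps7-ps3 had 201.5, 187.6 and 209.2 CPM in WT and Rps6-ps4 had 108.5, 135.4 and 94.15, and both had no count in KO. Gm13841 and Gm8210, copies of each other, had 0, 0.0334 and 0 CPM in WT and 55.2, 52.99 and 44.25 CPM in KO.

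Of 11 heme synthesis genes tested 2 fell. Alad, the second enzyme of heme synthesis, fell from 121, 117.5 and 87.45 CPM to 35.2, 37.2 and 32.04 CPM, -1.64 ± 0.15 on the log2 scale (SE, edgeR adjusted p = 0.00183). It held in all 6 fits without 1 library and with the Y-linked term (0.0432). Alas1, the rate-limiting first enzyme, had 464, 186 and 200.2 CPM in WT and 142, 111 and 86.3 CPM in KO. WT 1 stood far above the rest, and its adjusted p of 0.0466 was lost in 4 of the 6 fits, at most 0.157. The last enzyme, Fech, had a log2 fold change of -0.40 (adjusted p = 0.0984). Alad and Alas1 were the 2 that fell, and 1 to 5 genes fell when 1 library was left out.

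Among genes of heme degradation and transport, only Hmox2 fell and only the haptoglobin-hemoglobin scavenger receptor Cd163 rose, of 12 tested. The inducible Hmox1 had 10.7, 17.3 and 18.4 CPM in WT and 25.2, 14.2 and 70.2 CPM in KO. KO 3 was high, KO 2 lay inside the WT range, and the log2 fold change of 1.24 ± 0.54 did not pass (SE, edgeR adjusted p = 0.145). Blvra and Blvrb, the biliverdin reductases, had log2 fold changes of -0.34 and -0.26 (adjusted p = 0.130 and 0.181), and the heme-sensing repressor Bach1 had 0.04 (0.811). Cd163 rose from 13.03, 13.8 and 15.5 CPM to 47.7, 28.7 and 38.5 CPM, 1.44 ± 0.19 on the log2 scale (SE; adjusted p = 0.00511). It held in all 6 fits, and KO 1 alone against the WT libraries gave 1.76. Cd163 marks macrophages, whose summed markers rose as given with the cell types.

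Of 20 genes of iron uptake, storage and export, 3 rose and 2 fell. Ceruloplasmin, Cp, which oxidises iron for export, rose from 120.2, 165 and 217.5 CPM to 365, 292 and 286 CPM (log2 fold change 0.91, edgeR adjusted p = 0.0336), and lost its call without 1 library (at most 0.0880). The importer Slc39a8 fell by 1.08 on the log2 scale (adjusted p = 0.0141). The transferrin receptor Tfrc (log2 fold change -0.96, adjusted p = 0.108) and ferritin heavy chain Fth1 (-0.37, 0.261) did not pass. Of 22 NRF2 targets, the genes of the main antioxidant regulator, 2 rose and 2 fell, shares near the 10% and 8.06% of all genes. Gclm, of glutathione synthesis, rose from 16.1, 20.2 and 16.8 CPM to 35.3, 29.6 and 31.96 CPM (0.87, adjusted p = 0.00787), whereas glutathione reductase Gsr fell by 0.83 (0.0131).

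Genes of endothelial identity and junctions were mostly higher. Of 30 tested, 12 rose and 1 fell, with a median log2 fold change of 0.60 against -0.02 for all genes. Pecam1, an adhesion molecule at EC contacts, rose from 1282, 1534 and 1960 CPM to 2722, 3108 and 2844 CPM (log2 fold change 0.86 ± 0.23, SE; edgeR adjusted p = 0.0416). The junction gene Jam2 rose from 90.1, 109 and 123.3 CPM to 194, 288 and 238 CPM (1.16, adjusted p = 0.00919), and the tight junction gene Ocln from 3.47, 4.38 and 5.69 CPM to 12.15, 12.4 and 15.2 CPM (1.55, 0.00631). Jam2 and Ocln were called in all 6 fits without 1 library. The receptor kinases Tek and Tie1 rose by 0.74 and 1.01. The main VEGF receptor, Kdr, fell from 19.9, 18.3 and 16.8 CPM to 11.55, 12.1 and 13.2 CPM (log2 fold change -0.58, adjusted p = 0.0233). VE-cadherin, Cdh5, had a log2 fold change of 0.26 that did not pass (0.323). The summed list stood at 4801 to 6996 CPM in WT and 7841 to 9784 CPM in KO. The number that rose ran from 4 without KO 3 to 17 without WT 3, and it was 0 with the Y-linked term and with KO 1 alone.

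Of 18 genes of the VEGF, angiopoietin and apelin systems, 4 rose and 3 fell. When 1 library was left out 0 to 4 rose and 0 to 3 fell, and with the Y-linked term 0 did either. The ligand Vegfb fell from 158, 114 and 83.7 CPM to 46.4, 50.65 and 48.1 CPM (log2 fold change -1.29, edgeR adjusted p = 0.0106; 0.0563 at most without 1 library), and the co-receptor Nrp2 fell by 1.01 (0.0350). Vegfa had -0.65 and did not pass (0.16). Arterial Notch genes gave 4 rises and 1 fall among 22, among them the arterial repressor Hey2 (0.84, adjusted p = 0.0269) and the connexin Gja5 (1.00, 0.0327). The rises numbered 0 to 7 when 1 library was left out and 0 with the Y-linked term. The fall was Notch3, the receptor of smooth muscle and pericytes, from 21.45, 19.45 and 20.5 CPM to 6.55, 4.56 and 6.14 CPM (-1.83 ± 0.17, SE; 0.00183), in all 6 fits without 1 library.

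Genes used as PCR markers of EC activation were then examined, and 5 of them could be tested. P-selectin, Selp, which tethers leukocytes, rose from 74.8, 94.7 and 106.5 CPM to 129.6, 157 and 142 CPM (log2 fold change 0.64 ± 0.16, SE; edgeR adjusted p = 0.0319). Vcam1 rose from 145.5, 170.2 and 208.5 CPM to 282, 333 and 241 CPM (0.71, adjusted p = 0.0375). Icam1 (0.65, 0.0649), Cxcl1 (0.72, 0.191) and Nampt (-0.21, 0.314) did not pass. Il6 was too low to be tested, at 0, 0 and 0.124 CPM in WT and 0.177, 0.383 and 0.331 CPM in KO. The number that rose was 3 without WT 3, 1 without WT 1 and 0 without any other single library, with an adjusted p of up to 0.105 for Selp and 0.119 for Vcam1.

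Of 23 genes of leukocyte adhesion and inflammatory signalling 6 rose and 0 fell by edgeR (1 fell at an unadjusted p under 0.05, and 0 by DESeq2). They included the hyaluronan receptor Cd44 (1.24, adjusted p = 0.0164) and the interleukin-1 receptor Il1r1 (1.11, 0.0135). Of 27 chemokine and receptor genes 6 rose and 1 fell. The attractant Cxcl12 rose from 150.3, 106 and 257 CPM to 323, 428 and 341.5 CPM (1.09, 0.0482), and the monocyte attractant Ccl2, low in every library, from 0.812, 0.668 and 0.896 CPM to 3.29, 1.23 and 3.86 CPM (1.81, 0.0366). Without KO 3 the number that rose was 0 in both lists, and for chemokines also without KO 1 and without WT 2. With the Y-linked term it was 0 in both.

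Of 26 coagulation and fibrinolysis genes, 10 rose, with a median log2 fold change of 0.65. Tissue factor pathway inhibitor, Tfpi, which blocks the start of clotting, rose from 12.2, 9.63 and 15.1 CPM to 28.65, 33.4 and 28.25 CPM (1.29 ± 0.18, SE; edgeR adjusted p = 0.00577) and held in all 6 fits. Tissue plasminogen activator, Plat, which dissolves fibrin, rose by 0.83 (0.0149), and factor VIII, F8, rose from 4.06, 5.75 and 8.31 CPM to 8.50, 22.8 and 15.2 CPM (1.35, 0.04997). The list thus held rises in anticoagulant and fibrinolytic genes as well as in a clotting factor. The count fell to 1 without KO 3 and reached 13 without WT 3, and was 0 with the Y-linked term and with KO 1 alone. Of 17 complement genes 4 rose and 1 fell, among them the regulator Cd55 (1.12, 0.0197), with between 0 and 11 rises when 1 library was left out and 0 with the Y-linked term.

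Of 15 shear response genes 5 rose (2 to 7 without 1 library, 0 with the Y-linked term), including endothelial nitric oxide synthase, Nos3, from 122.8, 166 and 173 CPM to 246, 287 and 342 CPM (0.92 ± 0.19, SE; edgeR adjusted p = 0.0183) and Cyp1b1 (1.24, 0.00818, all 6 fits without 1 library). The flow-induced factors Klf2 (0.18, 0.638) and Klf4 (0.41, 0.406) did not pass. Of 19 genes of nitric oxide, cGMP and natriuretic peptide signalling 3 rose and 2 fell. The receptor of nitric oxide, Gucy1a1, found in smooth muscle, fell by 1.22 (0.0303), and the clearance receptor of natriuretic peptides, Npr3, by 1.53 (0.0344). Of 20 genes of endothelin, angiotensin and prostanoids 2 rose and 1 fell. Cyclooxygenase 1, Ptgs1, rose from 50.7, 55.5 and 65.2 CPM to 109, 130.2 and 130.0 CPM (1.11, 0.00405, all 6 fits). Endothelin 1, Edn1, varied widely among KO libraries at 108, 45.9 and 33.0 CPM and did not pass (0.346).

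The water channel gene Aqp1 fell in every KO library, from 353, 340 and 309 CPM to 124, 112 and 109 CPM (-1.54 ± 0.13, SE; edgeR adjusted p = 0.00130, also in all 6 fits without 1 library and with the Y-linked term). Its fall did not go with the endothelial list, in which most genes that moved rose. Among oxygen-responsive genes, Egln1 and Hif1an, enzymes that restrain hypoxia-inducible factors, fell by 0.74 (adjusted p = 0.0289) and 0.48 (0.0345), and Hif1a (0.20, 0.283) and Epas1 (0.32, 0.230) did not pass. Of the 10 genes in that list 0 to 2 fell when 1 library was left out, and 0 with the Y-linked term. Of 24 targets of hypoxia-inducible factors 5 rose and 2 fell. Without 1 library 0 to 6 targets rose and 1 to 3 fell, and with the Y-linked term 0 rose and 1 fell. The glucose transporter Slc2a1 rose by 0.75 (0.0401), whereas hexokinase 2, Hk2, fell from 193.5, 233.5 and 156 CPM to 47.4, 85.2 and 87.6 CPM (-1.40, 0.0140, all 6 fits).

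**Figure D4:**
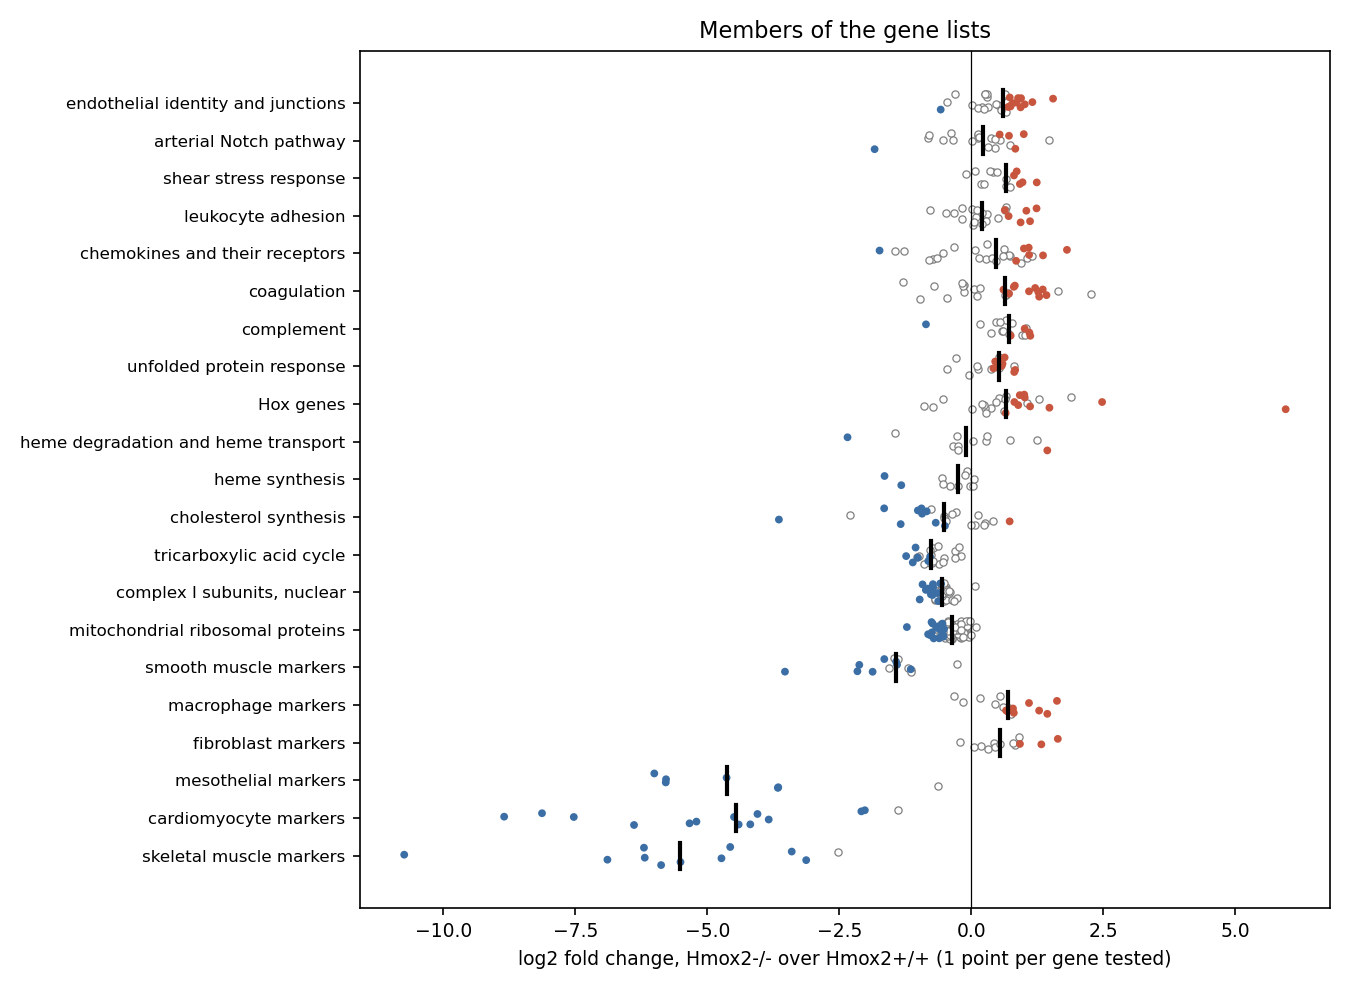
Log2 fold change, KO over WT, of each tested member of 21 gene lists. Filled red and blue points have an adjusted p of at most 0.05 (higher and lower in KO), open points do not, and the black bar is the list's median, which is 0.60 for endothelial identity and -0.56 for complex I.

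Genes of mitochondrial energy metabolism that moved were lower. Of 37 nuclear genes of complex I, which feeds electrons from NADH into the respiratory chain, 13 fell and 0 rose by edgeR, and 32 fell and 0 rose at an unadjusted p under 0.05. The median log2 fold change was -0.56. Ndufv3 fell from 307, 295 and 210.4 CPM to 139.6, 160 and 129 CPM (-0.92 ± 0.18, SE; edgeR adjusted p = 0.0156). Of 16 complex IV genes 5 fell, including Cox5b (-1.02, 0.0202) and the striated muscle subunit Cox6a2, from 3.80, 16.3 and 5.50 CPM to 0.319, 0.192 and 0 CPM. Of 18 ATP synthase genes 0 passed by edgeR (10 lower at an unadjusted p under 0.05, 8 by DESeq2), and of 13 mitochondrially encoded genes 0 passed (1 lower at an unadjusted p under 0.05, 1 by DESeq2). WT 1 and WT 2 were higher than WT 3 for most of these genes. The complex I count was 0 without KO 3 and 28 without WT 3, DESeq2 gave 23, and it was 0 with the Y-linked term.

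Of 78 mitochondrial ribosomal protein genes 16 fell (0 without KO 3 and with the Y-linked term), with Mrps36 falling from 127, 121 and 82.8 CPM to 41.8, 57.0 and 43.2 CPM (-1.22, edgeR adjusted p = 0.00952). Of 24 genes of the tricarboxylic acid cycle and pyruvate dehydrogenase 6 fell, including Ogdh (-1.11, 0.0361) and the kinases Pdk2 (-1.01, 0.0164) and Pdk4 (-1.05, 0.0374). That number was 0 without KO 2, without KO 3 and with the Y-linked term, and 16 without WT 3. Of 31 genes of fatty acid uptake and oxidation 3 fell, among them Hadh (-0.97, 0.0307), a share near the 8.06% of all genes. It was 1 in each fit without 1 library other than WT 3, 17 without WT 3 and 0 with the Y-linked term. The regulator Ppara, also a brown adipocyte gene, fell from 127, 72.4 and 60.1 CPM to 21.1, 22.2 and 27.3 CPM (-1.88, 0.00737, all 6 fits without 1 library). Transhydrogenase, Nnt, which makes NADPH in mitochondria, fell from 21.1, 15.4 and 16.2 CPM to 9.14, 7.59 and 6.36 CPM (-1.19, 0.00948, all 6 fits). The summed brown adipocyte markers stood at 3279 to 5700 CPM in WT and 2737 to 4553 CPM in KO and the cardiomyocyte markers at 149 to 565.5 and 13 to 16.3 CPM. The part of these cells in the mitochondrial genes was not tested.

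Cholesterol genes also fell, 9 of 23 with 1 rise. Insig1, the sterol sensor of the endoplasmic reticulum, fell from 114, 151 and 112 CPM to 54.1, 50.3 and 44.9 CPM (-1.34 ± 0.15, SE; edgeR adjusted p = 0.00332), and squalene synthase, Fdft1, fell from 164, 169 and 139 CPM to 66.0, 48.05 and 36.6 CPM (-1.65, 0.00489). Both were called in all 6 fits without 1 library. The exporter Abcg1 was the 1 that rose, by 0.73 (0.0381). Between 2 and 9 genes fell when 1 library was left out, and 0 with the Y-linked term.

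Of 18 genes of the unfolded protein response 9 rose and 0 fell by edgeR (12 and 1 at an unadjusted p under 0.05, 11 and 0 by DESeq2), all by less than 1 on the log2 scale. Dnajb9, a co-chaperone of the endoplasmic reticulum, rose from 32.5, 43.75 and 33.0 CPM to 61.9, 60.2 and 72.5 CPM (0.83, edgeR adjusted p = 0.0135), and Manf rose by 0.59 (0.0215). The main chaperone Hspa5 had 0.54 (0.0851). The number was between 0 and 6 when 1 library was left out (0 without KO 3) and 0 with the Y-linked term. In the integrated stress response Ddit3 fell by 0.64 (0.0330), and 2 of 17 genes rose and 2 fell. Among heat shock genes the inducible Hspa1a and Hspa1b, near-identical copies, fell by 1.40 (0.02) and 1.46 (0.00990), and Hspa8 rose by 0.90 (0.0185).

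Of 27 Hox genes, which carry position along the body axis, 10 rose and 0 fell by edgeR (2 lower at an unadjusted p under 0.05, 0 by DESeq2), with a median log2 fold change of 0.65 and 24 positive values. Hoxa7 rose from 18.75, 17.8 and 15.85 CPM to 39.9, 32.6 and 26.6 CPM (0.92, edgeR adjusted p = 0.0128), and Hoxa9 from 3.84, 4.04 and 7.45 CPM to 14.7, 14.4 and 13.8 CPM (1.48, 0.0131). Between 2 and 9 Hox genes rose when 1 library was left out, and 2 with the Y-linked term. Secreted WNT inhibitors Sfrp2 and Sfrp4 rose, Sfrp4 from 64.4, 47.8 and 92.3 CPM to 240.0, 282 and 299.6 CPM (2.01 ± 0.24, SE; 0.00384), while Axin2, a target and brake of the pathway, fell from 13.8, 19.2 and 10.1 CPM to 3.01, 3.45 and 4.60 CPM (-1.96, 0.00650). Sfrp2, Sfrp4 and Axin2 were called in all 6 fits without 1 library. Among basement membrane genes, the laminin chain Lama3 rose from 6.35, 7.42 and 7.94 CPM to 18.6, 21.8 and 22.95 CPM (1.54 ± 0.15, SE; 0.00214, all 6 fits), whereas the chains of the endothelial laminins Lama4 (-0.48, 0.0194) and Lamc1 (-0.43, 0.0425) fell. Of 36 collagen chains 1 rose and 1 fell. The protease Mmp3 rose from 38.7, 16.3 and 48.55 CPM to 266, 112 and 98.1 CPM, most in KO 1 (2.20, 0.0255).

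Several lists gave few or no calls. Interferon-stimulated genes gave 1 fall among 32, Xaf1 (-2.10, edgeR adjusted p = 0.0187), and WT 3 stood high in them: Ifit1 had 5.02, 6.92 and 47.3 CPM in WT and 12.1, 14.1 and 11.6 CPM in KO. Of 16 genes of MHC class I presentation 0 passed by edgeR, and of 11 of class II 0 passed. An unadjusted p under 0.05 and DESeq2 each gave 1 class I gene higher and 1 class II gene in each direction. Of 20 clock genes in both lists 0 passed by edgeR (1 lower in each list at an unadjusted p under 0.05, and 1 in each by DESeq2). Of 26 immediate early genes only Myc passed, falling from 13, 12.1 and 12.95 CPM to 5.35, 4.64 and 7.87 CPM (-1.09, 0.0177). Of 30 cell cycle genes Pttg1, securin, was the 1 that rose, from 5.65, 3.78 and 2.81 CPM to 52.6, 41.6 and 36.6 CPM (3.42 ± 0.27, SE; 0.00111). It held in all 6 fits, and KO 1 alone against the WT libraries gave 3.70. The proliferation marker Mki67 was highest in WT 2 at 53.8 CPM, against 4.65 and 17.5 in the other WT libraries. Of 83 cytosolic ribosomal protein genes 8 rose and 4 fell, and 50 have at least 20% of words shared. Rpl29 fell from 237.5, 267.5 and 267 CPM to 18.7, 20.6 and 15.4 CPM (-3.82, 2.75e-05), and Rps7 and Rpl10 rose by 2.04 and 1.51.

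The markers of other cells differed between the genotypes. Of 14 cardiomyocyte genes 13 fell, of 11 skeletal muscle genes 10 fell, and of 7 mesothelial genes 6 fell, with medians of -4.45, -5.51 and -4.63. Summed mesothelial markers stood at 40.35 to 181 CPM in WT and 6.27 to 6.935 CPM in KO, and skeletal muscle markers at 27.9 to 145 and 2.46 to 3.26 CPM. The cardiac myosin Myh6 had 25.8, 78.1 and 28.0 CPM in WT and 0.0354, 0.4215 and 0.2575 in KO. Myh6 was thus close to absent in every KO library and at an uneven level in WT. The summed cardiomyocyte markers were reduced and not absent, at 149 to 565.5 CPM in WT and 13 to 16.3 CPM in KO. The counts stayed at 8 or more for cardiomyocyte, 6 or more for skeletal muscle and 4 or more for mesothelial genes when 1 library was left out. With the Y-linked term they were 2, 0 and 1, and with KO 1 alone 0, 0 and 0.

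Smooth muscle genes fell by less and less evenly. Of 15 tested 8 fell, with a median log2 fold change of -1.42. Myh11 had 1272, 569 and 961 CPM in WT and 402, 128 and 115 CPM in KO (-2.12 ± 0.54, SE; edgeR adjusted p = 0.0347), and lost its call without KO 3 (0.113). Acta2 had 3057, 1529 and 2302 CPM in WT and 1907, 590.0 and 518.7 CPM in KO, so that KO 1 lay inside the WT range, and did not pass (-1.19, 0.154). The number that fell was 14 without KO 1 and 2 without KO 2 and without KO 3, and 0 with the Y-linked term. Pericyte genes gave 3 falls among 8, with Cspg4 falling from 72.25, 51.0 and 55.3 CPM to 21.2, 20.6 and 14.1 CPM (-1.67, 0.00384, all 6 fits). White adipocyte genes gave 4 falls among 12, most firmly the hormone leptin, Lep, from 43.2, 39.8 and 22.4 CPM to 2.69, 3.49 and 1.545 CPM (-3.77 ± 0.36, SE; 0.00192, all 6 fits), while adiponectin, Adipoq, had -0.30 (0.380).

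Of 16 macrophage markers 8 rose (4 to 12 without 1 library, 1 with the Y-linked term), with a summed level of 624.5 to 825 CPM in WT and 1088 to 1653 CPM in KO. Lyve1 rose from 20.2, 27.2 and 28.4 CPM to 68.3, 47.6 and 69.0 CPM (1.29, edgeR adjusted p = 0.00749, all 6 fits), and Adgre1, which marks mature macrophages, by 0.79 (0.0110). Of 7 lymphatic endothelial genes 4 rose (2 to 4 without 1 library, 1 with the Y-linked term), including podoplanin, Pdpn, from 2.95, 4.21 and 4.70 CPM to 18.3, 12.9 and 14.7 CPM (1.95, 0.00366), while the defining factor Prox1 stayed near 1 CPM and did not pass (0.49, 0.582). Of 13 fibroblast markers 3 rose (0 to 8 without 1 library, 8 of them without WT 3, and 0 with the Y-linked term), among them Dcn, from 999.7, 807 and 1594 CPM to 3375, 2654 and 2509 CPM (1.33, 0.0255). Platelet factor 4, Pf4, rose (1.30, 0.0203) while the platelet genes Ppbp (-0.84, 0.346) and Itga2b (-0.50, 0.332) did not pass. Of 9 erythroid genes 0 passed by edgeR (1 lower at an unadjusted p under 0.05, 1 by DESeq2), and of 14 T, NK and B cell genes 0 passed (2 lower at an unadjusted p under 0.05, 1 by DESeq2). With KO 1 alone the complex I list gave 0 calls and the macrophage list 1. The part of these cell types, of mitochondrial RNA and of the Y-linked split in the gene lists was not tested.

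**Figure D5:**
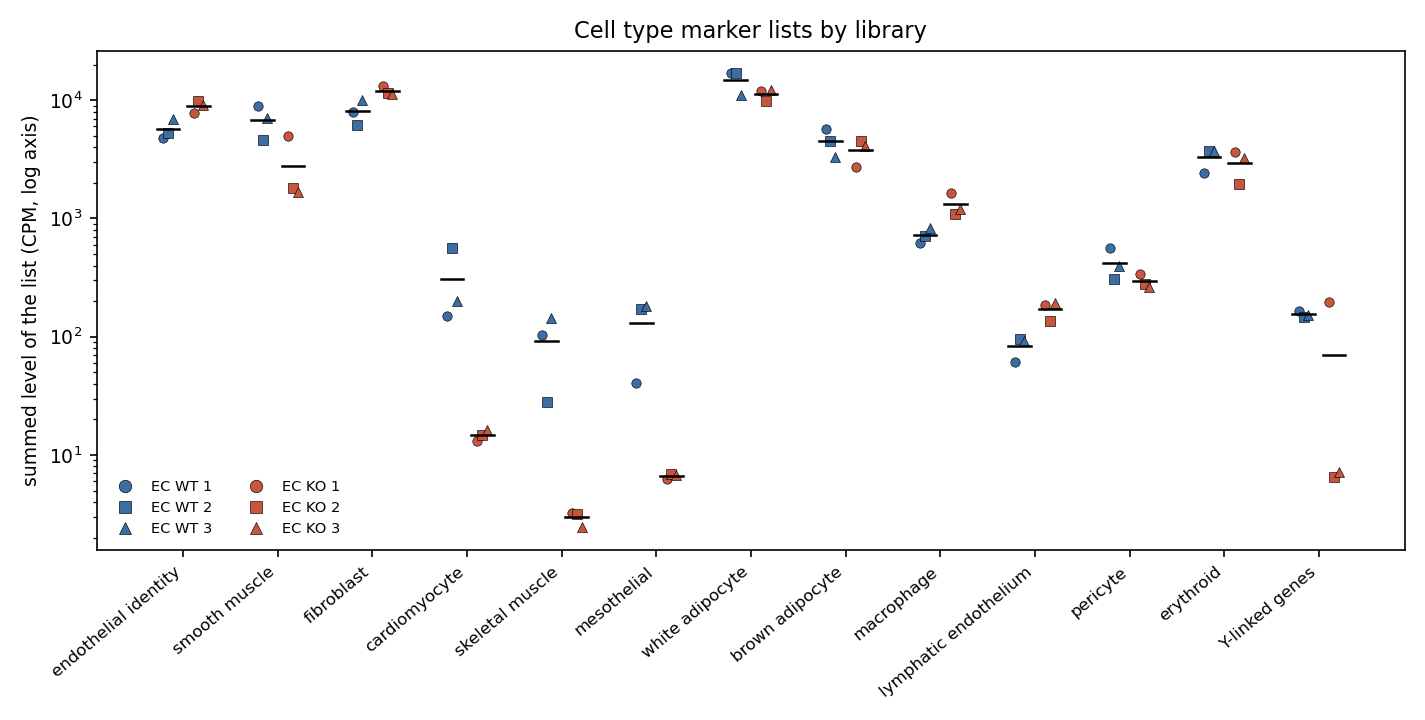
Summed CPM on a log axis of 13 marker lists in each EC library. Cardiomyocyte, skeletal muscle and mesothelial sums are lower in every KO library than in any WT library, macrophage and lymphatic sums are higher, and the Y-linked sum is low only in KO 2 and KO 3.

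Counted per transcript, 903 of 37705 were higher (2.39%) and 891 lower (2.36%), and 943 of the 1585 genes with such a transcript were not DEGs as genes. In 65 genes transcripts were called in both directions. These calls were fragile, as 107 of the transcripts were called in all 6 fits without 1 library, and the assignment error of the quantification is not in the deposited values. Serglycin, Srgn, a proteoglycan of secretory granules, was the firmest case. Srgn-201 rose from 46.1, 44.15 and 48.4 CPM to 154, 169 and 143 CPM (1.75 ± 0.12, SE; edgeR adjusted p = 0.00312), and Srgn-205 went from 27.2, 29.3 and 32.5 CPM to no count (0.00193). Both held in all 6 fits, and the gene as a whole rose by 1.04 (0.00316).

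For the calpain inhibitor Cast the transcripts cancelled in the gene. Cast-212 went from 26.45, 28.9 and 19.3 CPM to 0.1599, 0 and 0 CPM, and Cast-207 rose from 18.6, 20.45 and 27.4 CPM to 59.1, 41.6 and 49.1 CPM, while the gene had 0.04 (edgeR adjusted p = 0.833). Prkar2b, a regulatory subunit of protein kinase A, had the same form: Prkar2b-201 fell from 56.8, 81.55 and 34.7 CPM to 8.795, 11.4 and 10.9 CPM, and Prkar2b-203 rose from 33.6, 41.6 and 23.7 CPM to 108, 163 and 146 CPM, with the gene at -0.38 (0.281). In the splicing factor genes Srsf6 and Srsf7 a coding or decay transcript moved against others. Srsf6-201, a target of nonsense-mediated decay, fell from 34.1, 30.2 and 31.2 CPM to 9.64, 12.7 and 14.9 CPM and the retained-intron Srsf6-204 rose from 19.5, 13.4 and 20.5 CPM to 39.4, 35.15 and 47.5 CPM. Arf4-202 went from 0, 0.502 and 0.245 CPM to 23.4, 19.25 and 22.5 CPM and the decay model Arf4-203 fell from 37.2, 31.9 and 35.5 CPM to 9.12, 18.4 and 13.9 CPM. Rpl11-201 rose from 102, 109 and 105 CPM to 368, 324 and 278 CPM while Rpl11-210 fell from 100.4, 100.7 and 123.2 CPM to 18.01, 35.6 and 28.6 CPM. Except for Srgn-201, Srgn-205, Cast-212 and Rpl11-201, each of these transcripts lost its call in at least 3 of the 6 fits that left out 1 library.

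The EC difference was tested against that in whole hearts in all 13 libraries. The record calls the EC and heart samples matched, but the labels do not say which libraries share a mouse. All 13 were treated as independent, so the SE and adjusted p of this fit leave out any shared mouse. The tissue by genotype term passed for 4596 of 15938 genes (28.8%). For Hmox2 the difference between tissues was -0.08 on the log2 scale (edgeR adjusted p = 0.709), and for Gdpd3 it was -0.70 (0.326), so neither passed. Trap1 rose by less in ECs than in hearts, 3.08 against 4.70, a difference of -1.66 ± 0.15 (SE; adjusted p = 2.41e-05).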

How the data were processed

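Polyadenylated RNA was sequenced as paired 100-base reads from directional libraries. The authors made the deposited estimated counts and TPM values per transcript with Kallisto 0.44.0 at default parameters, which ignore strand, for each library alone. The methods name GENCODE M32 and GRCm39, while the submitters' notes list other builds. Here 115140 of 118489 transcripts (97.2%) were matched by identifier to GENCODE M39 on GRCm39, giving 36109 genes, and 0.755% to 0.917% of the counts of the 6 EC libraries were left unmatched. Only 620 of 32884 annotated lncRNA genes were listed.

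The rounded sum of the estimated counts of each gene was scaled by TMM after filterByExpr (minimum count 10) and tested with edgeR 4.0.16 (R 4.3.3) by the quasi-likelihood F-test, KO against WT in the 6 EC libraries, with Benjamini-Hochberg adjustment over all genes. A DEG had an adjusted p of at most 0.05 and a log2 fold change of at least 1 in size. CPM is the summed count scaled to the library's total over the genes tested, multiplied by its TMM factor. Transcripts were tested in the same way, and the tissue by genotype term in 13 libraries. Genes sharing at least 20% of 31-base words with another gene were treated as having a near-identical copy. Words were compared on either strand, so genes that overlap a neighbour, such as Hmox2 and Cdip1, also entered this class. The test was tried on simulated EC libraries of 15301 genes, 200 of them altered by 2 on the log2 scale, and found 152 with 7 false calls. For 37705 transcripts it found 41 of 200 with 2 false calls. The simulated counts were drawn for each gene or transcript on its own. They held no shared shifts between genes and no Y-linked split, so these false calls do not give the number in the real libraries. The study gives n = 3 per strain for these ECs. The labels number the samples and do not say that each is a separate mouse. KO 1 differed from KO 2 and KO 3 in Y-linked RNA, so these were not all repeats of 1 RNA. The p-values measure only the spread between these samples, part of which may be technical. All values were computed with Python 3.11.15 and pandas 2.3.3.

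Named were Hmox2 and its transcripts; the 10 DEGs with the largest change in each direction among genes without a near-identical copy that were called in all 6 fits without 1 library and reached 5 CPM in the higher group; the 5 largest in each direction among genes with a copy; DEGs within 10 Mb of Hmox2; of each gene list, preset key members and up to 4 per direction with the lowest adjusted p; and 8 genes with transcripts called in both directions. Some genes that these rules pick are not reported here. These members, the gene lists and the tests were chosen with earlier results of these data known, and no list was tested as a set. Alternatives were DESeq2 1.42.0, other scalings and filters, the Y-linked level as a covariate above or below 10 CPM, a replicate block, and leaving out each library; the fit without KO 2 and KO 3 was added after the data were seen. Counting error is covered by the model, and a bound set by 3 counts covers counting error only.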

Additional observations from a re-analysis of the deposited data

Results flagged for a closer look

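Each of the genes below was picked out because its KO over WT difference in ECs differed from that in whole hearts, by the tissue by genotype term in all 13 libraries (edgeR adjusted p of at most 0.05; values are EC minus heart on the log2 scale). Muscle genes that fell in ECs gave the largest negative values: Myl2 -9.51, Pvalb -9.09, Myl3 -8.62, Csrp3 -7.485, Eef1a2 -6.64, Tnnt2 -6.62, Tnnt3 -6.42, Acta1 -4.785 and Myh11 -2.19. In hearts their log2 fold changes lay between -1.44 (Acta1) and 2.20 (Pvalb). The mesothelial gene Upk1b gave -6.98. Fits of genes near 0 in 1 genotype depend on the prior count, so these sizes are not bounds.

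Genes that rose in ECs and did not pass in hearts gave positive values: Or4c3 8.68, Hoxb1 7.48, Gm48391 6.575, Zfp457 5.67, Or2t1 5.20 and Or1f19 3.52.

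Near Hmox2 the difference was -1.655 for Trap1, which rose in both tissues (3.08 in ECs, 4.70 in hearts), -1.025 for Cdip1, -1.28 for Adcy9 and -0.97 for Srl. Of the genes whose transcripts ran in opposite directions, Srsf7 gave 0.78, Srgn 0.73, Srsf6 0.49 and Rpl11 -1.12. Of 321 genes named from the gene lists with such a test, 158 passed, against 28.8% of all genes. Members with a low adjusted p in ECs were picked for naming. The term uses the same EC libraries, so the picking favoured a higher share in advance.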

How the results depend on the processing

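The numbers of DEGs depended most on which libraries entered. Leaving out 1 library gave 304 (without KO 3) to 1021 (without WT 3) genes higher and 229 to 697 lower. The Y-linked term gave 131 higher and 69 lower, the fit without KO 2 and KO 3 (KO 1 alone against 3 WT libraries), chosen after seeing the data, 23 and 26, and a test against a fold change of 2 gave 269 and 151. The other settings stayed within 1.5 times the main counts, from 631 to 965 higher and 463 to 873 lower, DESeq2 giving 965 and 761. For transcripts the counts were 38 higher and 64 lower with the Y-linked term, and 51 to 795 higher and 126 to 698 lower without 1 library. For the tissue by genotype term the Y-linked term gave 2075 genes. Among 237 named genes with an adjusted p of at most 0.05, 90 kept it without KO 3 and 41 with the Y-linked term, while DESeq2 kept all 237. Hmox2 kept its direction and call in every setting, with log2 fold changes of -2.44 to -1.15.

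For 2 named genes that did not pass, the sign turned under an alternative that did pass. The signs of other genes that did not pass also varied. Ifit1 was -1.11 without WT 1 and rose by 1.07 without WT 3 (edgeR adjusted p = 0.0178), and Cast was -0.51 with counts from length-scaled TPM (0.0298). The cause was not tested.

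Nothing says that equal replicate numbers pair the libraries. The correlations of same-numbered WT and KO libraries were 0.223, 0.0784 and 0.0607. Those of differently numbered libraries ran from -0.237 to 0.173. So few values cannot decide whether the libraries were paired. With a replicate block 762 genes were higher and 627 lower, and 7 transcripts were higher and 12 lower. Depth was 26067147 counts or more in each EC library. The 3 libraries per genotype and the Y-linked split both limit the results, and these limits were not ranked.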
